A study of Mus musculus with 40 samples.

Results

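The nuclear genes for the subunits of oxidative phosphorylation were examined by complex in the livers of mice given GenX. The members were all gene symbols that begin with Nduf followed by a, b, c, s or v and a number (complex I), the 4 Sdh genes (complex II), the Uqcr genes (complex III), Cox4 to Cox8 genes (complex IV) and the Atp5 genes (complex V). They make up 81 of the 21448 gene symbols measured. By complex, they number 34 for I, 4 for II, 8 for III, 19 for IV and 16 for V. Ndufa4 and Ndufa4l2 carry the name of complex I but were counted with complex IV, where their products sit. Atp5s (now Dmac2l) and Cox7a2l fall under the name rule but are factors and not subunits. They were kept in the counts and medians of complexes V and IV. The members were chosen by name, but with earlier results of these data known.

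GenX is the trade name of the ammonium salt of hexafluoropropylene oxide dimer acid, a perfluoroalkyl ether acid. Wildtype Crl:CD1(ICR) mice, an outbred stock, received it by oral gavage for 90 days, and the controls received deionized water. The doses in mg/kg bw/d were 0.1 (low), 0.5 (middle) and 5 (high). From each of the 8 groups of sex and dose, only the first 5 mice by animal number were sequenced. For each of these, 1 fixed and embedded liver section was scraped from a slide. Expression was measured with TempO-Seq, in which a pair of probes that bind side by side on an RNA is joined, amplified and counted by sequencing. The library of 1 female at 0.5 mg/kg was left out by the depth limit of the study, which leaves 4 mice in that group and 39 libraries in all.

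Oxidative phosphorylation takes place in the inner mitochondrial membrane. Complexes I and II pass electrons from NADH and succinate to coenzyme Q, complex III passes them to cytochrome c and complex IV to oxygen. Complexes I, III and IV pump protons, and complex V, the ATP synthase, uses the proton gradient to make ATP. Most subunits are encoded in the nucleus and some in the mitochondrial genome, and several subunits of complexes IV and V have isoforms that differ between tissues. In the liver this pathway takes up the electrons released by fatty acid oxidation.

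3 promoters introduce the genes on which most of the results below turn. Cox6b1 and Cox6b2 encode the usual and the testis isoform of 1 subunit of complex IV. Atp5g3 encodes a copy of subunit c, which forms the membrane ring of the ATP synthase. The sequences are those of RefSeq on GRCm38.p6, from 250 bases before to 50 bases after the start used in that table, 5′ to 3′ on the strand of the gene. For Atp5g3 this start lies inside the annotated gene, downstream of its outermost start. Capitals mark a match to a motif searched on both strands.
Cox6b2, chr7:4753045-4753344, minus strand: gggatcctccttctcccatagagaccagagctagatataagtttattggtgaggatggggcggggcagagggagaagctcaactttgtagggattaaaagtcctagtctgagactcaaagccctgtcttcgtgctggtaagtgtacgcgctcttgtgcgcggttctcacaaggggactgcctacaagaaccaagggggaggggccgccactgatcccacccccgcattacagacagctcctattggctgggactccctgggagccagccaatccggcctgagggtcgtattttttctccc
Cox6b1, chr7:30626065-30626364, minus strand: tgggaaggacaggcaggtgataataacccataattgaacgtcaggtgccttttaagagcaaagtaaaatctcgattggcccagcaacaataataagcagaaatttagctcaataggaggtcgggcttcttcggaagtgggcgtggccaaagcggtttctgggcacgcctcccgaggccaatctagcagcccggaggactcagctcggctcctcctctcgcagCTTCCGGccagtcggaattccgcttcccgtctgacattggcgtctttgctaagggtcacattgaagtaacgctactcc
Atp5g3, chr2:73911277-73911576, minus strand: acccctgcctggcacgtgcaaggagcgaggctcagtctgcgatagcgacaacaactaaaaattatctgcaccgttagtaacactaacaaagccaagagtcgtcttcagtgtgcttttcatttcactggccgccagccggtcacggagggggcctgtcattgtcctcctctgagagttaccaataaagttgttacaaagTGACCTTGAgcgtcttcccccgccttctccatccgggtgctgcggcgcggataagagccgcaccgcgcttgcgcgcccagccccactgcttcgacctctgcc
The window of Cox6b2 held none of the motifs searched. The capitals in Cox6b1 are the ETS motif CCGGAAG on the opposite strand, 28 bases before the start. Those in Atp5g3 are the estrogen-related receptor (ERR) motif TNAAGGTCA on the opposite strand, 52 bases before the start, and this motif contains the hexamer AGGTCA of PPAR binding elements.

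Windows were at hand for 66 of the 81 members, and for 32851 promoters in all. CCGGAAG was in 22.7% of the members' windows and 8.86% of all windows. The YY1 motif AAGATGGC was in 12.1% and 2.75%, the NRF1 motif TGCGCATGC in 7.58% and 1.52%, and the ERR motif in 4.55% and 1.28%. AGGTCA was in 24.2% of the members' windows and 16.3% of all windows, and outside an ERR motif in 19.7% and 15.2%. Among members called higher at 5 mg/kg in either sex, 31.2% of 16 windows held AGGTCA, 18.8% the ETS, 12.5% the YY1, 6.25% the NRF1 and 6.25% the ERR motif. Among the other 50 the shares were 22%, 24%, 12%, 8% and 4%, and these small groups of windows were not tested. A match says only that these letters are in the window.

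Values below are CPM, normalized counts that give the share of a library's reads on a probe after TMM scaling, and fold changes are on the log2 scale with their SE. A gene was called when the two-sided quasi-likelihood test of edgeR gave an adjusted p under 10% over all 17877 probes tested. Each gene is read through its most counted probe, and because probes differ in how well they capture their RNA, CPM values are not compared between genes. Of the 81 members, 75 passed the filter on low counts. The others were Sdhb, an iron-sulfur subunit of complex II, and Cox6a2, Cox7a1, Cox7b2, Cox8c and Ndufa4l2, isoforms that are mostly used in other tissues or under other conditions. Sdhb, Cox6a2 and Cox8c had 0 reads in all 39 libraries. Other general subunits were also near 0, with a mean of 0.28 CPM for Ndufa3 and 0.80 CPM for Cox7a2, so a probe at 0 says nothing about whether the liver expresses the gene.

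Total reads per library ranged from 10341341 to 15562253. Reads on a probe gathered at multiples of 21 to 50, which places a library at about 284218 to 649658 captured molecules. The median number of molecules was 329378 in control males, 451123 at 0.5 mg/kg and 580385 at 5 mg/kg. In females the medians were 420153, 350240 and 322975. Molecules thus rose with dose in males and fell in females, and their part in the results was not tested beyond a fit with molecules as a covariate. Summed hepatocyte markers lay between 16267 and 17890 CPM in control males and between 12107 and 13961 CPM at 5 mg/kg. The ranges were 19367 to 24075 and 14972 to 19266 CPM in females, and 3 of 7 hepatocyte markers in males and 2 of 7 in females were called lower. Summed stellate cell markers were 63.7 to 129 CPM in control males and 157 to 194 CPM at 5 mg/kg, with 2 of 6 called higher. In females the sums were 103 to 154 and 95.5 to 151 CPM, with 0 of 6 called. Summed markers of cycling cells were 0 to 1.79 CPM in control males and 23.2 to 62.2 CPM at 5 mg/kg, with 1 of 3 called higher. In females they were 0 to 10.6 and 0 to 33.5 CPM, with 0 called. Of 5 endothelial markers, 1 was called lower in males and 0 in females. The part of these cells in the results was not tested, and in tissue sections fewer cells of a type and less RNA per cell cannot be told apart.

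At 5 mg/kg, 15 members rose and 0 fell in each sex and all of them belonged to complexes I, III, IV and V. In males 4.83% of all probes tested were called higher and 3.45% lower, compared with 20% and 0 of the 75 members. In females 1.83% of all probes were called higher and 1.83% lower, again compared with 20% and 0 of the members. An unadjusted p under 0.05 pointed lower for 2 members in males and 1 in females. DESeq2 called 14 higher and 3 lower in males (Ndufa12, Ndufb9 and Atp5h), and 24 higher and 0 lower in females. Of all probes tested by DESeq2, 5.49% were called higher and 4.95% lower in males, and 2.83% and 2.56% in females. The median change over the members was 0.24 in males and 0.36 in females, beside 0.10 and -0.01 over all probes. With the probes of each gene summed, the medians were 0.137 in males, beside 0.0804 over all genes, and 0.338 in females, beside -0.0178. Of the 75 members, 54 had a positive change in males and 69 in females. With molecules as a covariate, 5 members were called higher in males and 14 in females, beside 1.81% and 2.10% of all probes called higher. With the shallow library put back, 5 and 1 were called higher, beside 2.92% and 0.713% of all probes, and with library totals in place of TMM 27 and 21, beside 6.79% and 2.19%. No member was called lower by edgeR in these 3 fits. Some other edgeR fits called 1 member lower each in males. These used the size factors of DESeq2 (12 higher), only the groups compared (18 higher) or probes summed by gene (16 higher). Of all features tested in these fits, 3.98%, 5.15% and 4.49% were called lower and 4.1%, 7.34% and 6.39% higher. In females these fits called 0 members lower.

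Every treated male lay above every control male for 18 members and below for 0, compared with 5.29% and 3.19% of all probes. In females the counts were 15 and 0, compared with 1.86% and 1.49%. Well-counted probes are called more often, so the members were also set beside probes with a mean of at least 50 CPM, a limit chosen after seeing the data. Of these 2477 probes, 18.4% were called higher in males, compared with 26.5% of the 49 members above the limit. In females the shares were 9.12% and 28.6%. All 49 well-counted members had a positive change in females, compared with 49.3% of the well-counted probes, and 37 of 49 in males, compared with 53.3%.

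**Figure D1:**
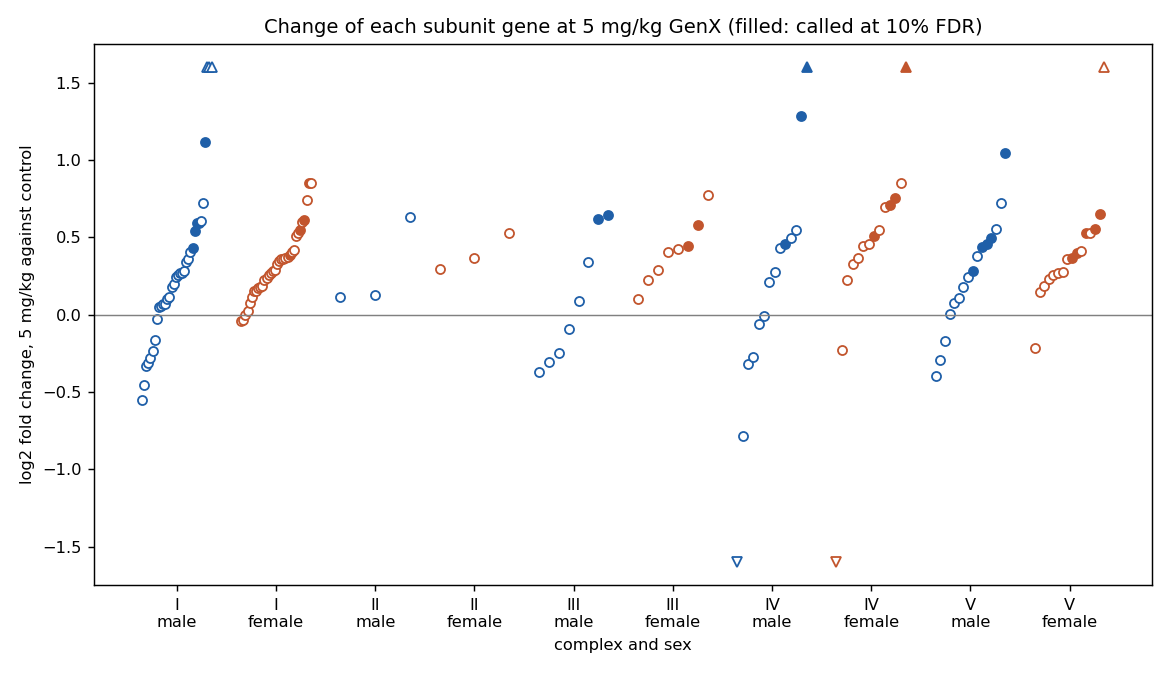
Log2 fold change at 5 mg/kg against the control of the same sex for each member tested, by complex, with males and females side by side. Filled points are genes called at an adjusted p under 10% and triangles lie beyond the axis. In females 69 of 75 points lie above 0, and in males 54 of 75.

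Complex I, the NADH dehydrogenase, had 5 of 34 members higher in males and 4 of 34 in females. Its median change was 0.25 in males and 0.31 in females. The 7 core subunits, which carry the flavin and iron-sulfur centers or bind coenzyme Q, had medians of 0.20 in males and 0.17 in females. Of the 27 accessory subunits, 4 were higher in each sex, with medians of 0.27 and 0.33. Ndufb2, an accessory subunit of the membrane arm, had the smallest p of the complex. It measured 279, 302, 315, 275 and 241 CPM in control males and 396, 412, 451, 391 and 404 CPM in males at 5 mg/kg. All treated males lay above all control males, with a change of 0.54 ± 0.12 (SE, adjusted p = 0.00117). In control females Ndufb2 measured 280, 306, 355, 291 and 268 CPM, and at 5 mg/kg 404, 327, 376, 439 and 410 CPM. The female groups overlapped through 1 treated mouse, and the change was 0.38 ± 0.12 (adjusted p = 0.0681).

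Among the members of complex I with the largest called changes in males were Ndufc2 (1.11 ± 0.33, adjusted p = 0.0264) and Ndufa8 (0.59 ± 0.19, adjusted p = 0.0424), both accessory subunits. Ndufc2 was weakly counted, from 11.3 to 27 CPM in control males and from 24.2 to 47.3 CPM at 5 mg/kg, and the groups overlapped. In females the largest called changes were in Ndufs5 (0.85 ± 0.27, adjusted p = 0.0860), Ndufa10 (0.61 ± 0.15, adjusted p = 0.00734) and Ndufb10 (0.55 ± 0.14, adjusted p = 0.0163), all accessory subunits. Ndufa10 was higher in males too, by 0.43 ± 0.15 (adjusted p = 0.0650). Ndufb10 measured -0.03 in males, and its change in females minus that in males was 0.58 (95% interval 0.19 to 0.97), which did not pass the adjustment (edgeR, adjusted p = 0.137). With molecules as a covariate Ndufc2 kept its call in males, and Ndufa8, Ndufa10 and Ndufb2 did not, with changes of 0.30, 0.37 and 0.44 and adjusted p of 0.856, 0.568 and 0.222. Leaving out a single mouse ended the call of Ndufa8 in males (mouse 103 or 405, changes over all single mice left out 0.51 to 0.65), of Ndufa10 in males (mouse 101, 103, 104, 402 or 403, 0.39 to 0.48), of Ndufb2 in females (any but 153, 452 or 453, 0.34 to 0.45) and of Ndufs5 in females (mouse 151, 155, 451, 453 or 454, 0.65 to 1.0).

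Complex II, succinate dehydrogenase, is the only complex of the pathway that is also an enzyme of the citric acid cycle, and all of its subunits are nuclear. By the most counted probe, none of its 3 tested members was called in either sex at any dose. Further probes of Sdha, with means of 71.1 and 43.0 CPM, gave 0.46 and -0.38 in males at 5 mg/kg. In females at 5 mg/kg they gave 0.32 and -0.28, and none of these was called. The first was called in males at 0.5 mg/kg (0.67, adjusted p = 0.0950 by edgeR). At 5 mg/kg edgeR gave an unadjusted p under 0.05 for 0 of 3 in males and 2 of 3 in females, and DESeq2 called 0 in both sexes. Sdha, the flavoprotein subunit, measured 230, 179, 280, 264 and 230 CPM in control males and 225, 240, 262, 297 and 269 CPM at 5 mg/kg. The groups overlapped, and the change was 0.13 ± 0.14 (adjusted p = 0.850). In control females it measured 310, 271, 291, 255 and 271 CPM, and at 5 mg/kg 438, 253, 365, 270 and 388 CPM. In all, 3 treated females lay above all controls and the other two within or under their range, with a change of 0.29 ± 0.14 (adjusted p = 0.258). Sdhc, a membrane anchor, went from 123 ± 30.3 to 133 ± 23.2 CPM in males and from 123 ± 28.3 to 158 ± 29.4 CPM in females (SD, n = 5). Sdhd, the other anchor, went from 22.5 ± 12.3 to 35 ± 4.68 CPM in males and from 25.6 ± 10.9 to 36.9 ± 11.1 CPM in females. Sdhc and Sdhd had positive changes in both sexes, and neither passed the threshold. The probe for Sdhb had no reads, so complex II is described by 3 of its 4 genes.

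Complex III, which oxidizes coenzyme Q, had 2 of 8 members higher in each sex. Its median change was -0.00 in males and 0.42 in females. Uqcrc2, a core protein of the matrix arm, was higher in both sexes. In control males it measured 664, 639, 520, 584 and 552 CPM and at 5 mg/kg 876, 1054, 839, 873 and 909 CPM. In control females it measured 642, 546, 672, 656 and 563 CPM and at 5 mg/kg 945, 867, 894, 909 and 985 CPM. The groups did not overlap in either sex, and the changes were 0.62 ± 0.12 for the males (adjusted p = 0.000108) and 0.58 ± 0.12 for the females (adjusted p = 0.000724). The other called members were Uqcrb, which lies near a coenzyme Q site, in males (0.65 ± 0.17, adjusted p = 0.00882), and Uqcrh, the hinge protein at cytochrome c1, in females (0.45 ± 0.14, adjusted p = 0.0945). In males, Uqcrc1 (-0.30) and Uqcrq (-0.25) had negative changes at 5 mg/kg that did not pass the test. A second probe of Uqcrc1, with a mean of 121 CPM beside 156 CPM for the most counted, gave 0.06 in these males. With molecules as a covariate, Uqcrb kept its call in males and Uqcrc2 did not (0.45, adjusted p = 0.181), while Uqcrc2 kept its call in females (0.65, adjusted p = 0.000554). The call of Uqcrh was lost without any 1 of mice 151, 152, 154, 155, 451, 452 and 454, with changes of 0.35 to 0.56.

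Complex IV, cytochrome c oxidase, had 3 of 14 tested members higher in males and 4 of 14 in females. Its median change was 0.24 in males and 0.48 in females. Cox7c, a small membrane subunit, had the smallest p of the complex. It measured 481, 530, 525, 468 and 465 CPM in control males and 676, 751, 683, 601 and 671 CPM at 5 mg/kg. In control females it measured 417, 328, 429, 392 and 437 CPM and at 5 mg/kg 734, 627, 650, 689 and 674 CPM. The groups did not overlap in either sex. The change was 0.75 ± 0.11 in females (adjusted p = 1.80e-06) and 0.45 ± 0.11 in males (adjusted p = 0.00311). Females exceeded males in their change by 0.30 (95% interval 0.002 to 0.60, unadjusted p = 0.0541 and adjusted p = 0.411 by edgeR). This interval uses the normal distribution and is slightly narrower than the test would give.

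Cox6c, another small membrane subunit, ranged from 95.3 to 170 CPM in control males and from 226 to 384 CPM at 5 mg/kg. In females the ranges were 161 to 265 and 246 to 416 CPM. Control females thus lay higher than most control males, and the treated groups of both sexes lay in a similar range. Males changed by 1.28 ± 0.21 (adjusted p = 1.24e-05) and females by 0.71 ± 0.21 (adjusted p = 0.0460). With molecules as a covariate the change of Cox6c in males was 0.83 and lost its call (adjusted p = 0.152). In females the call was lost without mouse 152, 155, 451 or 454, with changes of 0.63 to 0.81.

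Complex V had 5 of 16 members higher in each sex, with a median change of 0.26 in males and 0.36 in females. Atp5g3 had the smallest p of all members in males. It measured 945, 893, 689, 833 and 850 CPM in control males, 1310, 1315, 1400, 1263 and 1349 CPM at 0.5 mg/kg and 1682, 1908, 1776, 1771 and 1535 CPM at 5 mg/kg. The 3 groups did not overlap, and at 5 mg/kg the level was 2.06 times that of the controls (1.04 ± 0.12, adjusted p = 3.13e-09). In control females it measured 1001, 808, 948, 852 and 843 CPM and at 5 mg/kg 1455, 1322, 1309, 1457 and 1453 CPM. These groups did not overlap either, and the change was 0.65 ± 0.12 (adjusted p = 0.000152). The female change minus the male change was -0.39 (95% interval -0.71 to -0.07), which did not pass the adjustment (edgeR, adjusted p = 0.300).

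The other called members of complex V with the largest changes in males were Atp5c1, the gamma subunit of the rotating stalk (0.49 ± 0.12, adjusted p = 0.00671), and Atp5j2, subunit f of the membrane part (0.46 ± 0.13, adjusted p = 0.0155). In females they were Atp5d, the delta subunit of the stalk (0.55 ± 0.16, adjusted p = 0.0395), and Atp5k, subunit e (0.53 ± 0.14, adjusted p = 0.0251). Atp5k was higher in males too (0.44 ± 0.14, adjusted p = 0.050). Atp5b, the catalytic beta subunit, did not pass the test of edgeR although its groups did not overlap in either sex, with 0.24 ± 0.10 for males (adjusted p = 0.153) and 0.26 ± 0.10 for females (adjusted p = 0.217). DESeq2 called it higher in females and not in males. With molecules as a covariate Atp5g3 kept its call in both sexes, with a change of 0.91 in males and 0.71 in females. Atp5c1, Atp5j2 and Atp5k lost theirs in males, with changes of 0.44, 0.18 and 0.43 and adjusted p of 0.269, 0.895 and 0.410. Leaving out a single mouse ended the call of Atp5k in males (mouse 101 or 403, 0.39 to 0.48), of Atp5k in females (mouse 155, 0.46 to 0.58) and of Atp5d in females (mouse 151, 152, 454 or 455, 0.44 to 0.64).

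**Figure D2:**
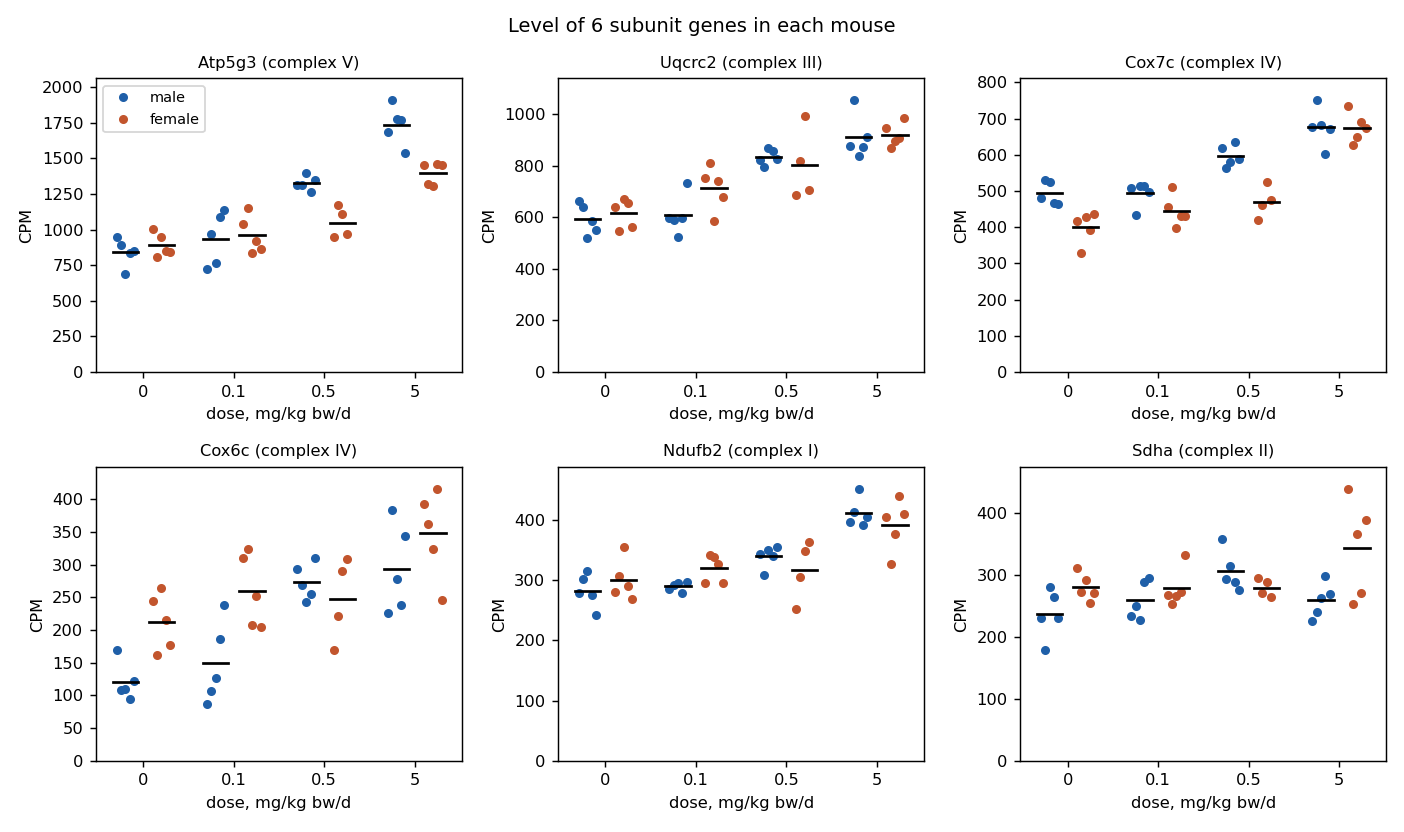
Level in CPM of 6 subunit genes in each mouse by dose, with males and females side by side and a bar at each group mean. Atp5g3 rises from 689 to 945 CPM in control males to 1535 to 1908 CPM at 5 mg/kg, while the Sdha groups overlap in both sexes.

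The mean log2 CPM over the well-counted members of a complex gives 1 value per mouse. At 5 mg/kg the mean of complex IV exceeded that of the controls by 0.37 in males and 0.47 in females, that of complex V by 0.24 and 0.36, and that of complex I by 0.17 and 0.32. In these 3 complexes every treated mouse lay above every control of its sex. Complex III exceeded the controls by 0.18 in males, with overlap, and by 0.37 in females, without overlap. Complex II, with 2 well-counted genes, exceeded them by 0.13 and 0.32, with overlap in both sexes. No test was made on these means. The numbers of genes are 21, 2, 6, 7 and 13 for complexes I to V, so a mean over complex II or III rests on few genes.

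**Figure D3:**
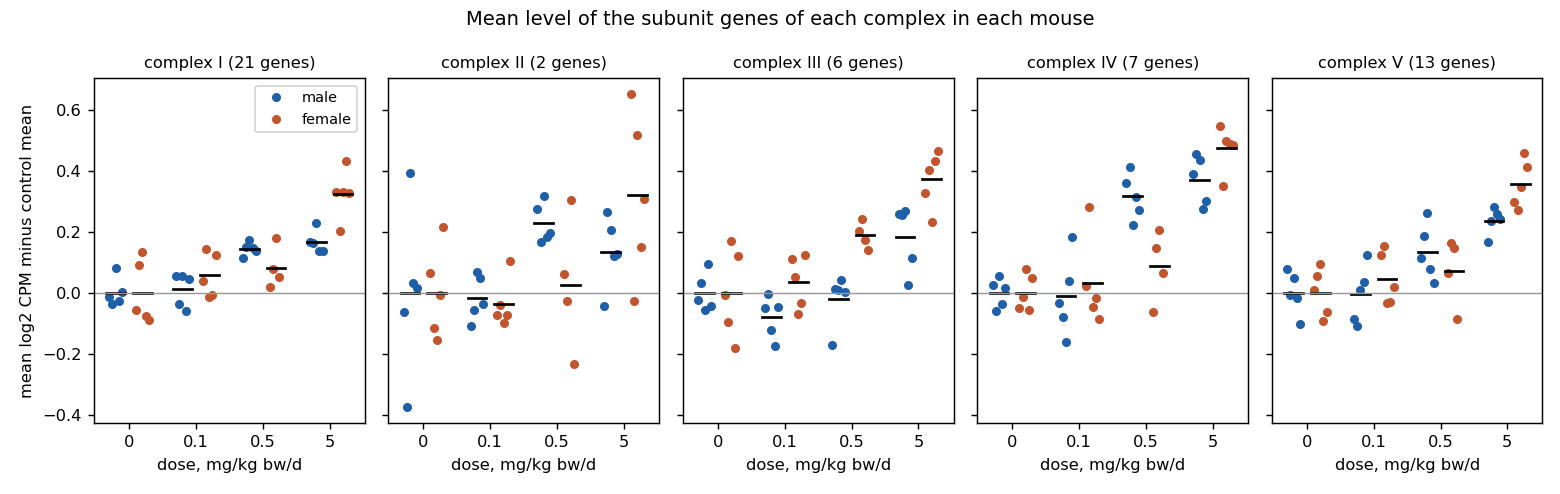
Mean log2 CPM over the members of at least 50 CPM in each complex, minus the mean of the controls of the same sex, for each mouse by dose, with a bar at each group mean. At 5 mg/kg complex IV lies 0.37 above the controls in males and 0.47 in females, and complex II overlaps its controls in both sexes.

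At 0.1 mg/kg no member was called in either sex. By edgeR an unadjusted p under 0.05 was found for 2 members higher and 2 lower in males and for 1 higher and 3 lower in females, and DESeq2 called 0 in both. By edgeR the share of all probes called was 0.0336% in males and 0% among females. By DESeq2 it was 0.932% higher and 0.519% lower in males, and 0.376% and 0.446% in females. At 0.5 mg/kg 7 members rose and 1 fell in males by edgeR, beside 1.74% and 0.638% of all probes. Of the well-counted members 12.2% were called higher, beside 8.44% of the well-counted probes. DESeq2 called 8 members higher and 3 lower (Uqcrc1, Ndufa12 and Atp5o), beside 2.89% and 1.92% of all probes it tested. The 7 were Atp5g3 (0.66 ± 0.12, adjusted p = 0.000359), Cox6c (1.18 ± 0.21, adjusted p = 0.000328), Uqcrc2 (0.49 ± 0.12, adjusted p = 0.0102), Cox7b (0.70 ± 0.20, adjusted p = 0.0511), Atp5c1 (0.43 ± 0.12, adjusted p = 0.0687), Atp5j2 (0.42 ± 0.13, adjusted p = 0.0856) and Cox6b2. Members of complex I were not among them by edgeR, with 8 higher and 1 lower of 34 at an unadjusted p under 0.05, and DESeq2 called 1 higher (Ndufs3) and 1 lower (Ndufa12). The calls of Atp5c1 and Atp5j2 were lost without most single mice (6 and 9 of 10), with changes of 0.36 to 0.48 and 0.39 to 0.46, and with molecules as a covariate, at 0.40 and 0.26 (adjusted p = 0.251 and 0.553). Uqcrc2 also lost its call under the covariate, at 0.39 (adjusted p = 0.189).

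The member that fell was Atp5o, which encodes the stalk subunit that confers oligomycin sensitivity. It measured 92.2, 118, 99.6, 60.0 and 83.9 CPM in control males and 53.9, 60.2, 72.4, 46.7 and 53.2 CPM at 0.5 mg/kg. The groups overlapped, and the change was -0.66 ± 0.20 (adjusted p = 0.0887). The call was lost without any of 8 single mice, with changes from -0.78 to -0.55, and with molecules as a covariate, at -0.61 (adjusted p = 0.304). At 5 mg/kg Atp5o measured -0.40 and was not called. Cox7b, a small subunit of complex IV, measured 214, 212, 228, 239 and 242 CPM in control males and 284, 680, 295, 292 and 293 CPM at 0.5 mg/kg. Mouse 302 stood far above the others, and without it the change was 0.36 and the call was lost. The call was also lost without control mouse 101 or 102.

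In females at 0.5 mg/kg no member was called by edgeR, compared with 0.185% of all probes higher and 0.028% lower. An unadjusted p under 0.05 was found for 6 members higher and 0 lower. DESeq2 called Uqcrc2 higher, beside 0.818% of all probes called higher and 0.746% lower. The median change over the members was 0.15 in males and 0.08 in females at this dose. Between 0.5 and 5 mg/kg, 1 member was called higher in males (Atp5g3, 0.39 ± 0.12, adjusted p = 0.0801), compared with 2.64% of all probes called in either direction. The call of Atp5g3 was lost in 9 of the 10 fits that left out 1 mouse, all but that without mouse 405, with changes of 0.35 to 0.43, and with all 40 libraries or molecules as a covariate. In females Cox7c (0.52 ± 0.11, adjusted p = 0.00699), Atp5k (0.55 ± 0.15, adjusted p = 0.0647) and Cox6b2 were called higher. Of all probes 0.571% were called higher and 1.23% in either direction. Among the well-counted, 4.08% of the members and 3.19% of the probes were called higher in females, and 2.04% and 4.6% in males. Among the well-counted, the calls at this step were thus close to the background. Of all 75 members 4% were called higher in females and 1.33% in males, beside 0.571% and 0.973% of probes. DESeq2 called 9 and 1 higher, beside 1.66% and 1.95%, and 0 and 1 lower, beside 1.51% and 2.6%. Median changes were 0.24 in females and 0.07 in males, beside 0 and 0.07 over all probes. Positive were 47 and 32 of the 49 well-counted members, beside 48.2% and 49% of the well-counted probes. Of the 9 fits in females that left out 1 mouse, 0 ended the call of Cox7c, 6 that of Atp5k (0.47 to 0.60) and 4 that of Cox6b2.

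Cox6b2 was the isoform with the largest response. Its counts were 0 in all 5 control males. At 0.5 mg/kg it measured 4.64, 2.08, 7.91, 6.02 and 0 CPM, and at 5 mg/kg 46.8, 35.2, 58.8, 41.9 and 30.7 CPM. All males at 5 mg/kg lay above all other males, and at 0.5 mg/kg 4 of 5 males had reads. At 0.1 mg/kg, where the test called no member, mice 203 and 204 measured 2.52 and 2.03 CPM and the other males 0. These levels are close to the lowest level above 0 at 0.5 mg/kg, 2.08 CPM. In molecules, 126 were captured at 5 mg/kg against 0 in the controls. With the controls set at a floor of 3 molecules, this is 24.4-fold higher as a share of all molecules of the group. At 0.5 mg/kg 9 molecules were captured, 2.18-fold higher on the same scale. The test called Cox6b2 at 5 and at 0.5 mg/kg (edgeR, adjusted p = 3.85e-05 and 0.00864). These ratios take the treated molecules as exact, so neither is a lower bound, and they do not cover the spread between mice.

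In control females Cox6b2 measured 0, 2.92, 0, 2.86 and 0 CPM, which is 3 molecules in all, and at 5 mg/kg 81.6, 25.8, 7.17, 29.3 and 21.3 CPM. The groups did not overlap, and the ratio of 56 to 3 molecules, each taken as a share of all molecules of its group, was 23.7 (95% interval 7.72 to 119, counting error only; adjusted p = 0.0325 by edgeR). The call in females was lost without mouse 451, which had the highest level (adjusted p = 0.138), under DESeq2 and with molecules as a covariate (adjusted p = 0.133). At 0.5 mg/kg 1 of 4 females had reads, at 2.25 CPM. Cox6b2 was the only member called for a difference between the sexes at 0.5 mg/kg, with the lower change in females (edgeR, adjusted p = 0.0980), compared with 0.274% of all probes. This call rests on 9 molecules in the treated males. The call was lost with the size factors of DESeq2, with all 40 libraries, with only the groups compared, with molecules as a covariate and in 13 of the 19 fits that left out 1 mouse. DESeq2 itself called Cox6b2, and also Uqcrc1 and Atp5o with the higher change in females. Of all probes it tested, 0.863% were called with the higher and 1.32% with the lower change in females.

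Cox6b1, the isoform used by most tissues, measured 403, 335, 371, 331 and 336 CPM in control males and 572, 324, 427, 497 and 329 CPM at 5 mg/kg. The groups overlapped, and the change was 0.27 ± 0.15 (adjusted p = 0.273). In control females it measured 221, 319, 304, 264 and 353 CPM and at 5 mg/kg 366, 370, 493, 407 and 439 CPM. The female groups did not overlap, and the change was 0.51 ± 0.15 (adjusted p = 0.0447), a call that was lost with molecules as a covariate (0.41, adjusted p = 0.206) and without mouse 151, 154, 453 or 455, with changes of 0.42 to 0.58. The markers of striated muscle, another source of isoforms of complex IV, summed to between 2.98 and 19.8 CPM in control males and to between 9.23 and 21.4 CPM at 5 mg/kg, with 5 of 7 at 0 in both groups. In females the sums were 2.57 to 29.3 and 3.58 to 13.3 CPM. Markers of testis were not among the lists.

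**Figure D4:**
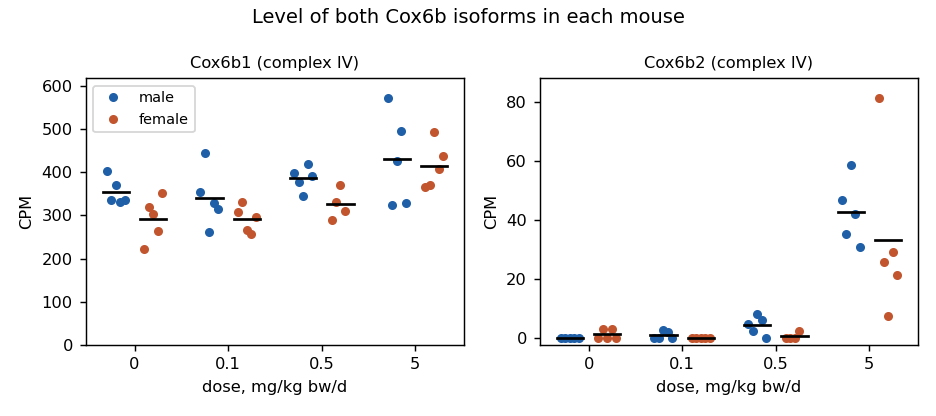
Level in CPM of Cox6b1 and Cox6b2 in each mouse by dose, with males and females side by side and a bar at each group mean. Cox6b2 is at 0 in the control males and between 30.7 and 58.8 CPM in the males at 5 mg/kg, and between 7.17 and 81.6 CPM in the females at 5 mg/kg.

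The other isoforms of tissues besides the liver stayed at or near 0 in the probes used. Cox4i2, the isoform of lung, had a mean of 0.08 CPM in control males and 0 at 5 mg/kg, and 1.05 and 0 CPM in females, and neither change was called. Its general partner Cox4i1 measured 258 ± 21.2 and 256 ± 31.8 CPM in males and 212 ± 25.9 and 247 ± 27.9 CPM in females (SD, n = 5), with changes of -0.01 and 0.22. Cox6a1, the partner of the heart and muscle isoform Cox6a2, measured 17.3 ± 3.29 and 25.3 ± 8.48 CPM in males and 19 ± 5.76 and 34.3 ± 6.20 CPM in females, and was not called by edgeR (adjusted p = 0.288 and 0.15). DESeq2 called it higher in females. Cox7a1, the heart and muscle isoform, had a mean of 0 CPM in control males, control females and males at 5 mg/kg, and of 0.35 CPM in females at 5 mg/kg. Its partner Cox7a2 measured 1.40 ± 1.85 and 1.12 ± 1.05 CPM in males and 0.46 ± 1.04 and 0.39 ± 0.88 CPM in females. This pair and Cox8a, at 5.57 to 11.1 CPM over the groups named here, are too weakly counted for a comparison of isoforms.

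Cox7b2, the testis partner of Cox7b, had a mean of 0.61 CPM in control females and of 0 in the other 3 of these groups. Cox7b was not called at 5 mg/kg, with 0.50 ± 0.20 in males (adjusted p = 0.140), where the groups did not overlap, and 0.37 ± 0.20 in females (adjusted p = 0.345). Ndufa4 had medians of 33.5 and 42.5 CPM in males and of 30.2 and 38.7 CPM in females, with overlap, and was not called, and Ndufa4l2, its partner in low oxygen, was at 0 in these groups. Of the 3 genes that encode the same mature subunit c, Atp5g3 was called higher in both sexes. Atp5g1 went from 6.89 ± 3.28 to 10.1 ± 4.78 CPM in males and from 10.5 ± 1.74 to 9.02 ± 5.17 CPM in females. Atp5g2 went from 51.5 ± 8.66 to 54.4 ± 13.1 CPM in males and from 43.8 ± 5.21 to 58.4 ± 4.76 CPM in females. Neither was called in either sex, with adjusted p from 0.271 to 1. Per mouse, the log2 ratio of Atp5g2 to Atp5g3 averaged -4.03 ± 0.27 in control males and -5.03 ± 0.40 at 5 mg/kg, and -4.34 ± 0.26 and -4.58 ± 0.18 in females (SD, n = 5). The ratio was thus lower in each male at 5 mg/kg than in each control male, and the female groups overlapped.

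Of the 15 members called higher at 5 mg/kg in each sex, 9 were the same, which is 60% of each list. Over the 49 well-counted members the changes in males and females had a Pearson r of 0.47 and a Spearman rho of 0.39, given as a description across genes of the same libraries. The change was larger in females than in males for 34 of these 49 and for 50 of all 75. In males 12 of the 49 had a negative change, led by Ndufa12 (-0.45), Atp5o (-0.40), Ndufa13 (-0.33), Uqcrc1 (-0.30) and Atp5h (-0.29), and none of the 12 had one in females. With molecules as a covariate the male changes of Ndufa12 and Ndufa13 were 0.11 and 0.18, and that of Ndufa13 in females was -0.02. By edgeR no member was called for a difference between the sexes at 5 mg/kg, compared with 1.04% of all probes. An unadjusted p under 0.05 was found for 10 members with a larger and 3 with a smaller change in females. DESeq2 called 8, each with a larger change in females, namely Ndufb5, Ndufb9, Ndufb10, Ndufa12, Ndufv3, Cox7c, Atp5h and Atp5o. Of all probes it tested, 1.55% were called with a larger and 1.54% with a smaller change in females. The intervals of the difference were often wide, as for Uqcrc2 (-0.36 to 0.28), which was called in both sexes, and Sdha (-0.22 to 0.55), which was called in neither, so equal changes were not shown.

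**Figure D5:**
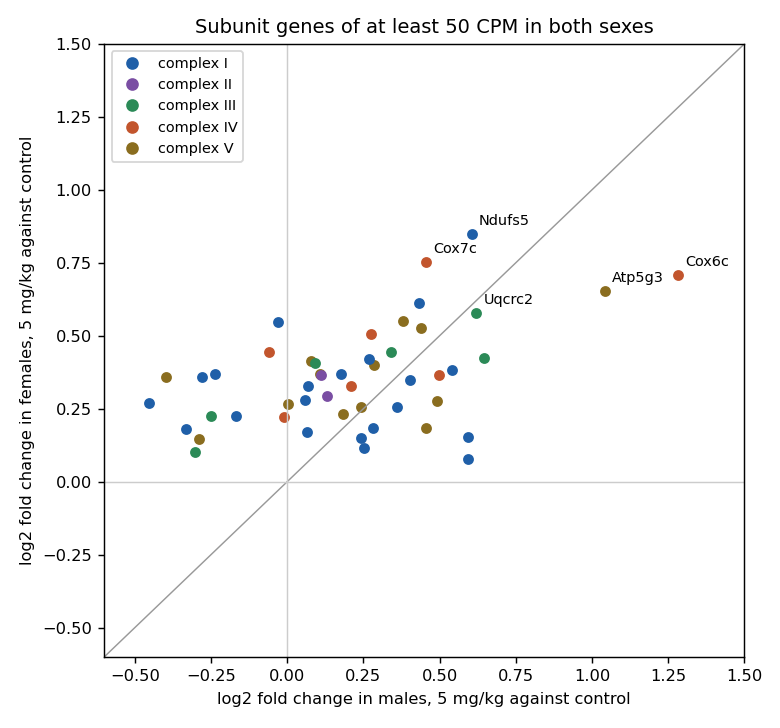
Log2 fold change at 5 mg/kg in males (horizontal) and females (vertical) for the 49 members of at least 50 CPM, colored by complex, with the line of equal change. All 49 points lie above 0 on the female axis and 37 lie above 0 on the male axis.

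Some members differed between the sexes in the controls. Compared with control males, control females had 6 members higher and 3 lower by edgeR, beside 2.11% and 1.38% of all probes. Among the well-counted, 8.16% of the members and 8.48% of the probes were called higher, so calls in that direction were close to the background. Lower were 3 of 49 members and 174 of 2477 probes. Of all 75 members 38.7% had a positive change, beside 51.9% of all probes, with medians of -0.06 and 0.03. DESeq2 called 6 higher and 11 lower, beside 3.47% and 2.74% of all probes it tested. Its size factors in edgeR gave 5 and 5, beside 1.86% and 1.55%, and with all 40 libraries 0 were called. Among the higher were Cox6c (0.82 ± 0.21, adjusted p = 0.0172), Ndufb8, an accessory subunit of complex I (0.73 ± 0.22, adjusted p = 0.0583), Cox7b (0.67 ± 0.20, adjusted p = 0.0501), Atp5c1 (0.40 ± 0.12, adjusted p = 0.0737) and Cox6b2. Cox6b2 was at 0 in the males, and its call rests on 3 molecules in the females. Lower were Ndufa12, an accessory subunit of complex I (-0.67 ± 0.17, adjusted p = 0.0120), Uqcrc1, a core protein of complex III (-0.53 ± 0.17, adjusted p = 0.0761), and Uqcrq, a small subunit of complex III (-0.67 ± 0.19, adjusted p = 0.0516). Leaving out 1 of the 10 control mice ended the calls of Cox6c and Ndufa12 in 0 fits, those of Ndufb8 and Cox7b in 4, those of Cox6b2 and Uqcrq in 5 and those of Atp5c1 and Uqcrc1 in 7. The control males enter both this contrast and the male dose contrasts, so only levels are given side by side. Ndufa12 measured 191 ± 22 CPM in control males, 139 ± 27.2 in males at 5 mg/kg, 119 ± 19.5 in control females and 144 ± 20.3 in females at 5 mg/kg (SD, n = 5). Uqcrc1 measured 192 ± 15.6, 156 ± 20.6, 133 ± 18.8 and 142 ± 34.6 CPM in the same order. For both genes the control males were the highest of the 4 groups by the mean.

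Of the members, 56 have a single probe. The other members have 18 further probes of at least 10 CPM, and at 5 mg/kg 16 of these had the sign of the most counted probe in females and 8 in males. The 3 probes of Atp5f1, subunit b of the ATP synthase, gave 0.40, 0.37 and 0.39 in females, each called (adjusted p = 0.0173, 0.0326 and 0.0659). In males they gave 0.28, 0.21 and -0.20, and the first alone was called (adjusted p = 0.0991), a call lost without any 1 of 8 mice (0.24 to 0.32). The male result of Atp5f1 therefore depended on the probe. The sign of Uqcrc1 in males did too. Its most counted probe gave -0.46 at 0.5 mg/kg and -0.30 at 5 mg/kg, and a second probe gave 0.21 and 0.06, with none of these called by edgeR. The positions of the probes on the transcripts are not given in the sources used here.

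Other genes of the pathway were counted from lists. Of 47 tested assembly factors, which build the complexes but do not stay in them, 0 were called higher at 5 mg/kg in either sex. At an unadjusted p under 0.05, 6 were higher in males and 5 in females, and DESeq2 called 0 and 1 (Coa3, an assembly factor of complex IV). Sco2, a copper chaperone of complex IV, was called lower in males, from 172 ± 48.1 to 88.0 ± 7.68 CPM (-0.97 ± 0.27, adjusted p = 0.0175). In females it measured 129 ± 30.3 and 116 ± 38.4 CPM, and was not called. Of 15 regulators, among them Ppara, Ppargc1a, Nrf1, Gabpa and Tfam, 0 were called in either sex. An unadjusted p under 0.05 was found for 2 higher and 1 lower in males and 0 in females, and DESeq2 called 1 higher in males (Nrip1, a corepressor of nuclear receptors) and 0 in females.

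Of 20 electron carriers, coenzyme Q genes and subunits that the name rule did not take, 2 were called higher and 1 lower in males, and 3 higher and 0 lower in females. Ndufab1, the mitochondrial acyl carrier protein and a subunit of complex I, went from 129 ± 36.4 to 395 ± 27.6 CPM in males (1.61 ± 0.18, adjusted p = 2.24e-09) and from 126 ± 26.5 to 232 ± 53.5 CPM in females. Etfb, which carries electrons from fatty acid oxidation toward coenzyme Q, went from 145 ± 18.9 to 269 ± 27.3 CPM in males (0.89 ± 0.15, adjusted p = 1.19e-05) and from 175 ± 31.4 to 285 ± 49.5 CPM in females (0.70 ± 0.15, adjusted p = 0.00130). Coq5, a methyltransferase of coenzyme Q synthesis, was called in females (0.68 ± 0.18, adjusted p = 0.0176) and not in males (0.46 ± 0.18, adjusted p = 0.128).

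Of the 13 subunits of the mitochondrial genome 8 were measured, and at 5 mg/kg males had 3 called higher and females 1. In males mt-Nd4l, a subunit of the membrane arm of complex I, went from 567 ± 76.4 to 942 ± 249 CPM (0.73 ± 0.18, adjusted p = 0.00412). In females it measured 1068 ± 131 and 1028 ± 192 CPM, with a change of -0.05 ± 0.18. The control males were thus lower than the other 3 groups. mt-Nd4 measured 24.8 ± 11.4 and 71.8 ± 18.9 CPM in males and 56.7 ± 17.3 and 62.4 ± 13.9 CPM in females, and mt-Nd3 measured 9.00 ± 4.34, 32.2 ± 12, 31.1 ± 12.3 and 29.8 ± 15.2 CPM in the same order. In females mt-Nd2 was called, from 70.9 ± 18.3 to 114 ± 13.4 CPM (0.68 ± 0.19, adjusted p = 0.0345).

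Among like groups, 6 of 12 citric acid cycle enzymes were called higher in males and 2 in females, with 0 lower and medians of 0.52 and 0.38. Dlst, a subunit of the 2-oxoglutarate dehydrogenase complex, went from 324 ± 27.2 to 512 ± 20.9 CPM in males and from 334 ± 45.7 to 506 ± 48.4 CPM in females. Of 74 mitochondrial ribosomal protein genes 5 were called higher in males and 3 in females, with medians of 0.16 and 0.15. Of 75 cytosolic ribosomal protein genes 19 were called higher and 1 lower in males and 6 and 0 in females, with medians of 0.16 and 0.21. The differences between these groups and the oxidative phosphorylation genes were not tested.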

How the data were processed

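The authors deposited raw, unnormalized read counts for 30146 TempO-Seq probes in every mouse, and the submitters' processing notes name bcl2fastq 2.17.1.14, Bowtie and mm10. The library of mouse 355 was left out because its 6711981 reads lay under the study's limit of 2 SD below the mean (9680193).

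Counts were tested in R 4.3.3 with edgeR 4.0.16 (TMM, default filter on low counts, quasi-likelihood F-test, 8 groups, no covariates, 39 libraries), with Benjamini-Hochberg adjustment over 17877 probes and a threshold of 10%. Log2 CPM used a prior count of 2. The fit was run on simulated counts with a single dispersion, reads not gathered in clumps and changes placed only in better-counted probes. That run does not bear on calls that rest on few molecules. Alternatives were DESeq2 1.42.0, its size factors in edgeR, library totals alone, no filter, all 40 libraries, a fit of just the groups compared, summed probes of a gene, and leaving out each mouse. Molecules as a covariate and the limit of 50 CPM were added after seeing the data. No label ties the mice to litters or days, so p-values cover the spread between these mice.

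Members and lists were chosen with earlier results of these data known. Genes were named by a rule. It took, per complex and sex, up to 3 called members with the largest change at 5 mg/kg, every member called at a lower dose, called lower or called for a sex difference, all complex II genes, the isoform pairs and the members that did not pass the filter. Values in every mouse are for the member of each complex with the smallest p, for called isoforms and for the sex difference. Other pathway lists gave up to 3 called genes. Atp5f1, Atp5b and the members named only from DESeq2, from the negative male changes or from an alternative were singled out after their values were seen. Some genes that fall under the rule are not reported here.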

Additional observations from a re-analysis of the deposited data

Results flagged for a closer look

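Of 104 groups of mice looked at for a single mouse far from the rest, 7 were marked. Groups without spread, such as Cox6b2 in control males, could not be tested. Chance marks about 5% of independent tests, but the mean of a complex shares genes with the single genes looked at. Sdha was at 331.82 CPM in mouse 255 (female, 0.1 mg/kg), above 252.77 to 271.91 CPM in the others of the group, and the mean log2 CPM of complex II in that mouse was 7.6206, above 7.4195 to 7.4767. Cox7c was at 435.06 CPM in mouse 202 (male, 0.1 mg/kg), below 497.32 to 512.94 CPM. Cox7b was at 679.94 CPM in mouse 302 (male, 0.5 mg/kg), above 284.48 to 295.13 CPM, and at 596.61 CPM in mouse 252 (female, 0.1 mg/kg), above 270.09 to 353.14 CPM. The mean log2 CPM of complex III was 7.6624 in mouse 301 (male, 0.5 mg/kg), below 7.8375 to 7.8753. Cox6b2 was at 2.248 CPM in mouse 354 (female, 0.5 mg/kg), where the others were at 0, so any level in that mouse would have been marked.

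The change of Cox6b2 at 0.5 mg/kg differed between the sexes by an interaction, at -9.8304 for the female minus the male log2 fold change. This fitted value depends on the prior count because the control males were at 0, and it is no measure of size.

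Further probes of some members, which the comparisons above did not use, were called on their own. They were a less counted probe of Sdha in males at 0.5 mg/kg (0.67283 on the log2 scale), of Ndufa9 in males at 5 mg/kg (1.0053), of Cox6b1 in females at 5 mg/kg (0.73806) and both further probes of Atp5f1 in females at 5 mg/kg (0.37221 and 0.38847). The most counted probe of Sdha gave 0.37 in males at 0.5 mg/kg and that of Ndufa9 gave 0.24 in males at 5 mg/kg, and neither was called.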

How the results depend on the processing

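No call of a named gene changed direction under the alternatives, but 148 recomputed values lost the call and 535 kept it. Among the counts and medians that answer a comparison 562 recomputed values were alike, 24 moved, 19 gained and 45 lost calls. The cause was not tested where values moved. In place of the 15 members called in males at 5 mg/kg, 27 were called with library totals alone, 5 with all 40 libraries and 5 with captured molecules as a covariate. In place of the 15 in females, 24 were called by DESeq2, 1 with all 40 libraries and 9 when only the groups compared were fitted. In place of the 8 in males at 0.5 mg/kg, 5 were called without a filter on low counts, 2 with all 40 libraries, 4 with the covariate and 4 to 7 when single mice were left out. In females at 0.5 mg/kg DESeq2 called 1, and without a filter 1 was called at 0.1 mg/kg in each sex. In males at 5 mg/kg 11 of the 15 calls were kept whichever mouse was left out, and 3 (Atp5g3, Cox6b2 and Ndufc2) under every other alternative. In females 6 were kept in the first way and 1 (Cox7c) in the second. With library totals alone the median of all probes in males at 5 mg/kg was 0.24, against 0.10 with TMM and 0.03 with the size factors of DESeq2, and 1214 probes were called higher and 488 lower, against 863 and 617, and 733 and 711. The median of the members lay 0.13, 0.14 and 0.14 above that of all probes, and with the probes of each gene summed 0.0566 above that of all genes. Among members not called at 5 mg/kg in males, Cox4i1, Cox5b, Ndufb10 and Uqcrfs1 turned positive with library totals (0.12, 0.0806, 0.10 and 0.0458). With the covariate Ndufa12, Ndufa13, Uqcr10, Uqcrfs1 and Uqcrq turned positive (0.11, 0.18, 0.0782, 0.13 and 0.33) and Sdha reached -0.00787. Of the 49 members of at least 50 CPM, 9 to 16 were negative over the alternatives, beside 12.

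For a difference between the sexes at 5 mg/kg, DESeq2 called 8 members, and no filter and only the groups compared gave 1 each. At 0.5 mg/kg the 1 call became 3 by DESeq2 and without a filter, 2 with library totals, 0 with the size factors of DESeq2, all 40 libraries, only the groups compared or the covariate, and 0 to 1 when single mice were left out. Between 0.5 and 5 mg/kg the 1 call in males became 2 by DESeq2, with its size factors, without a filter, with only the groups compared or with probes summed by gene, 5 with library totals, 0 with all 40 libraries and 0 to 1 with single mice left out. The 3 calls in females became 9 by DESeq2 and 1 to 3 with single mice left out. Between the control sexes the 9 calls became 17 by DESeq2, 0 with all 40 libraries, 5 with only the groups compared, 4 with the covariate and 4 to 9 with single mice left out.

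Median changes moved as follows. In males at 0.5 mg/kg, complex III was at -0.0692 with the covariate and -0.0546 over members of at least 50 CPM, and complex V at 0.0805 with probes summed and 0.0804 with the covariate. In males at 5 mg/kg, complex III was at 0.14 with library totals, 0.19 with the covariate and 0.22 over members of at least 50 CPM, and complex V at 0.40 with library totals and 0.14 with probes summed. In females at 0.5 mg/kg, complex I was at 0.14 with library totals, 0.0735 with probes summed, 0.0541 over members of at least 50 CPM and 0.0531 to 0.15 with single mice left out, and with all 40 libraries complexes I, II, III and V were at -0.0925, -0.211, -0.0887 and -0.175. In females at 5 mg/kg, complex I was at 0.37 with library totals, 0.34 with only the groups compared, 0.26 with probes summed, 0.26 with the covariate and 0.28 to 0.36 with single mice left out. No paired analysis was possible because the numbers in the labels are those of single animals and no number occurs in more than 1 group.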
